A study of Mus musculus with 16 samples.

Results

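The epithelium of the small intestine sends out chemokines, small secreted proteins that call immune cells into the mucosa, and it moves immunoglobulin A (IgA) from the tissue into the gut lumen. Expression of 9 genes with these tasks was described: the chemokine genes *Ccl25*, *Ccl28*, *Ccl20*, *Ccl6*, *Ccl9*, *Cxcl14*, *Cxcl16* and *Cx3cl1*, and *Pigr*, which encodes the polymeric immunoglobulin receptor. They were picked by symbol as genes of epithelial chemokine signalling and IgA transport, and they are 9 of the 45513 genes in the count files. Of the 9, 8 passed the filter on low counts and *Cxcl14* did not.

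From each of 8 mice a tdTom+ and a tdTom- fraction of EpCAM+ small intestinal epithelium was sequenced, which made 16 libraries. Both fractions came from Atoh1(WT)CreERT2 R26RtdTom mice, males and females of 8 to 16 weeks on a C57BL/6 background. In these mice a tamoxifen-inducible Cre recombinase (CreERT2) is made from both *Atoh1* alleles, and 1 Rosa26 allele carries a reporter that makes the red protein tdTomato once Cre has acted. *Atoh1* is a transcription factor of the secretory lineage. The mice received 1 mg of tamoxifen per day for 3 days, per the labels and per the methods for the secretory signature, which rests on this comparison of fractions. All mice were induced, and no uninduced group is among these samples. The cells came from the crypt-enriched part of the proximal small intestine and were live when sorted. The tdTom- fraction therefore held every EpCAM+ cell without the reporter and was not a pure cell type.

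Chemokines bind receptors on leukocytes and guide them along a gradient. *Ccl25* guides lymphocytes bearing *Ccr9* to the small intestine, and *Ccl28* attracts IgA-secreting cells through *Ccr10*. *Ccl20* is the ligand of *Ccr6*, and *Ccl6* and *Ccl9* are mouse CC chemokines that act on *Ccr1*. *Cxcl16* and *Cx3cl1* are made as membrane-bound proteins that can be shed, and their receptors are *Cxcr6* and *Cx3cr1*. *Pigr* binds IgA joined by the J chain at the basal side of an epithelial cell and carries it through the cell by transcytosis.

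The fractions separated as their labels state. *Atoh1* was at 62.5 ± 12.7 CPM (read counts scaled to a common library size by TMM factors; SD, n = 8) in tdTom+ and at 0.718 ± 0.247 CPM in tdTom- cells, and *Epcam* was at 942 ± 56.6 and 1019 ± 53.8 CPM. All 8 goblet and all 8 Paneth cell markers were higher in tdTom+, and all 8 absorptive markers were higher in tdTom-. The mucin gene *Muc2* of goblet cells had a log2 fold change of 7.55 and the apolipoprotein gene *Apoa4* of absorptive cells one of -3.59. The 8 enteroendocrine markers, and 6 of the 7 tuft cell markers that could be tested, were also higher in tdTom+. Among the 6, *Gfi1b*, named after its values were seen, had 13 to 59 reads per tdTom+ and 4 to 14 per tdTom- library. It passed the filter mainly through tdTom+, so its direction adds nothing to this count. The paper saw no tdTom in tuft or enteroendocrine cells soon after a single pulse of tamoxifen, while the mice here received it for 3 days. Total counts ran from 17116405 to 25323567 per library. Of 15323 genes tested by edgeR's quasi-likelihood F-test, 7606 passed an adjusted p threshold of 0.01. That is 49.6% of the genes tested, with 22.7% higher and 27.0% lower in tdTom+ cells. The libraries of mouse 7 stood apart, since the summed level of the absorptive markers in its tdTom- library was 14550 CPM against 24823 to 38346 CPM in the other mice. Fewer cells of a type and less RNA per cell cannot be told apart in sorted bulk samples.

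The start regions of 4 members are shown as the sequence context of the results. *Ccl6* and *Ccl9*, with the widest differences in favour of tdTom+, lie next to each other on chromosome 11. The windows run from 250 bases before to 50 bases after the annotated start (RefSeq, GRCm38.p6), and *Ccl6* is at chr11:83593038-83593337 and *Ccl9* at chr11:83578587-83578886, both on the minus strand. Capitals mark the bases that are identical in the best local alignment of both windows.
Ccl6: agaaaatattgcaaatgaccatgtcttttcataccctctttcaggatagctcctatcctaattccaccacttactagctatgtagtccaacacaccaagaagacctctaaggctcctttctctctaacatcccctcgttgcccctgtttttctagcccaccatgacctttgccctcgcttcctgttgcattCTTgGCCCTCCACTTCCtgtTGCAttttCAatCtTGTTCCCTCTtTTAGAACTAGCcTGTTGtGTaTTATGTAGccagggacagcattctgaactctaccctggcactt
Ccl9: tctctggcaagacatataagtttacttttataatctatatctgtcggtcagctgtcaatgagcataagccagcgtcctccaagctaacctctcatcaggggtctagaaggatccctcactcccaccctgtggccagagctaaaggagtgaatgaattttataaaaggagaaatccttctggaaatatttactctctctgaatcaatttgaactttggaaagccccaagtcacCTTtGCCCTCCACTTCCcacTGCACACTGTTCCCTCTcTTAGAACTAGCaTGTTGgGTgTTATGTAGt
The alignment had 74 columns, of which 59 were identical (79.7%). It ran from position -59 to 15 in the *Ccl6* window and from -18 to 49 in the *Ccl9* window, counted from the annotated start as position 1, so the alike stretch sat at different places relative to these starts. The rest of each window is shown in lower case.

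*Pigr* and *Ccl25* were the members lower in tdTom+ cells, and their windows are shown with the capitals marking 1 searched motif each. The *Pigr* window is chr1:130826434-130826733 on the plus strand, and the *Ccl25* window is the downstream one of its 2 annotated starts, chr8:4349338-4349637 on the plus strand.
Pigr: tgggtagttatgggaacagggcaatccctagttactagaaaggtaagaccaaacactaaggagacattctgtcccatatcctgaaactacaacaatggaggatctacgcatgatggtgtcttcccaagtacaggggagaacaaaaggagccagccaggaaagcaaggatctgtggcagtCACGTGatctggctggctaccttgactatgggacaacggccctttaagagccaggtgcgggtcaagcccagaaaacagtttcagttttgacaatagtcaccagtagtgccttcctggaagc
Ccl25: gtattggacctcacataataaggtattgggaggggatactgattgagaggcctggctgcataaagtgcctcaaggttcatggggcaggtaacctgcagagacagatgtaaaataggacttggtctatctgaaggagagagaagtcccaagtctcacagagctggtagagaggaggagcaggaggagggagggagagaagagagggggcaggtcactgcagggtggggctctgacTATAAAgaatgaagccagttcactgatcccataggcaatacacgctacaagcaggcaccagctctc
In *Pigr* the capitals are CACGTG, an E-box, at -71. In *Ccl25* they are TATAAA at -16. In all, 4 motifs were searched on both strands of the 32851 promoter windows in the table. The E-boxes CAGCTG and CACGTG occurred in 16.3% and 7.15% of them, TATAAA in 13.6% and the STAT-type motif TTCNNNGAA in 8.3%. CAGCTG was in the *Ccl9* window at -202 and in the *Ccl28* window at -183, and TATAAA was in *Ccl9* at -224, -94 and -92 (the last 2 overlap on opposite strands) and in *Cx3cl1* at -6. TTCNNNGAA was in *Pigr* at 40 and in *Cxcl14* at -191. The *Ccl6* window held none of the 4, and *Cxcl16* had no entry in the table. These matches describe letters in the windows and are not binding sites.

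Of the 8 members tested, 3 were higher in tdTom+ (*Ccl6*, *Ccl9* and *Cxcl16*), 2 were lower (*Ccl25* and *Pigr*), and 3 did not pass the test (*Ccl28*, *Ccl20* and *Cx3cl1*). The 5 called members had the same direction in 8 of 8 mice, and their fractions did not overlap. Among all genes tested, 14.6% did not overlap with tdTom+ higher and 17.0% with tdTom+ lower. The median log2 fold change was 0.12 over the 8 members and 0.0087 over all genes tested. The 5 of 8 members called stand beside 49.6% of all genes, so the count alone does not set the members apart, and the sizes are given gene by gene.

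**Figure D1:**
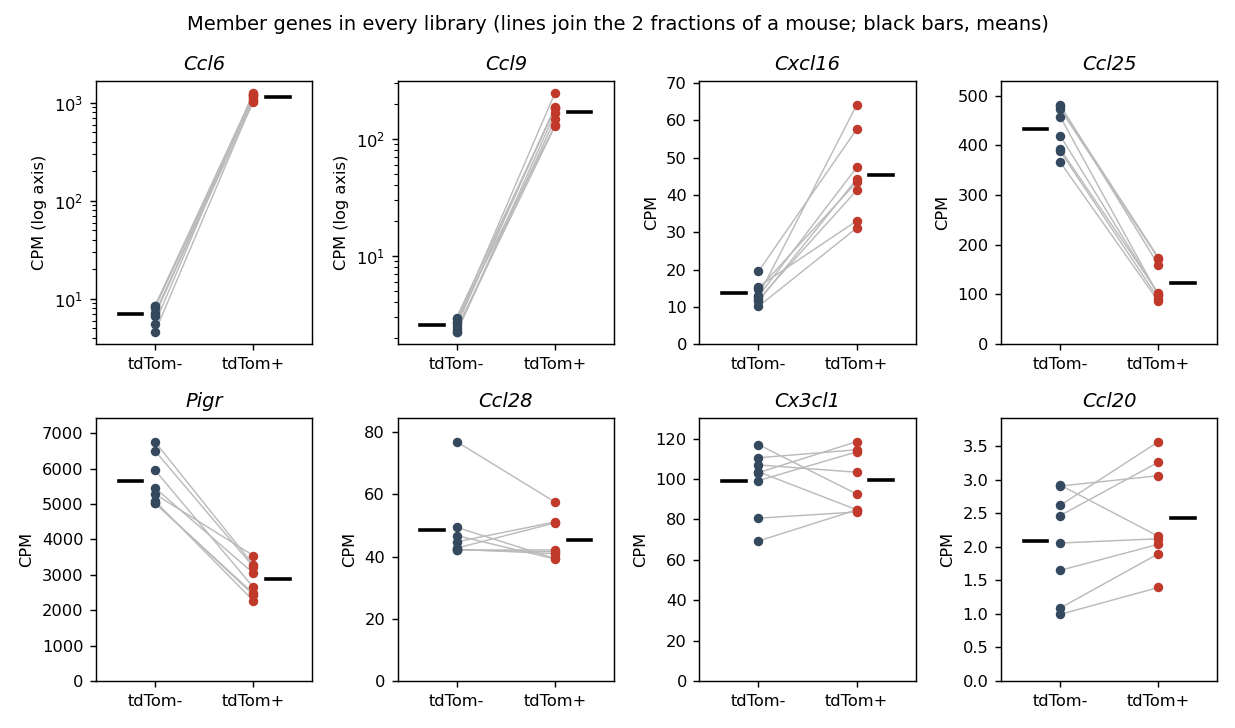
Levels of the 8 tested members in CPM (vertical axes, log axes for *Ccl6* and *Ccl9*) in the tdTom- and tdTom+ library of each of 8 mice. Points are libraries, grey lines join the 2 fractions of a mouse and black bars are means; *Ccl6*, *Ccl9* and *Cxcl16* rise and *Ccl25* and *Pigr* fall along every line, while the lines of *Ccl28*, *Cx3cl1* and *Ccl20* cross.

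*Ccl6* had the largest difference. *Ccl6* (ENSMUSG00000018927, chr11:83587882-83593087, minus strand) was at 1085, 1218, 1263, 1194, 1017, 1055, 1205 and 1155 CPM in the tdTom+ libraries of mice 1 to 8. In the tdTom- libraries of the same mice *Ccl6* was at 8.35, 8.41, 5.57, 6.84, 7.12, 4.55, 6.75 and 8.07 CPM. The lowest tdTom+ library was 121 times as high as the highest tdTom- library, and the spread within tdTom+ was narrow. The means were 1149 ± 87.3 and 6.96 ± 1.37 CPM (SD, n = 8 each), which gave a log2 fold change of 7.37 (SE 0.14, 95% interval 7.07 to 7.66, edgeR adjusted p = 7.92e-17). This ranked *Ccl6* at place 40 of 15323 from the highest log2 fold change. *Ccl6* took 0.112% of all counts in tdTom+ cells. The counts behind the low values were 94 to 191 reads per tdTom- library, so *Ccl6* was measured in both fractions.

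*Ccl9* (ENSMUSG00000019122, chr11:83572919-83578636, minus strand), its neighbour at a distance of 9245 bases, followed the same order at a lower level. *Ccl9* was at 182, 166, 147, 183, 130, 128, 247 and 187 CPM in tdTom+ cells of mice 1 to 8. In tdTom- cells it lay between 2.23 and 2.97 CPM with a median of 2.60. The tdTom+ library of mouse 7 was the highest. This was also the library with the highest summed level of the 8 Paneth markers, 139451 CPM against 52683 to 97277 CPM in the other mice, and the part of this in the *Ccl9* value was not tested. The mean difference was 6.05 on the log2 scale (SE 0.15, edgeR adjusted p = 5.08e-16), from 171 ± 38.5 to 2.58 ± 0.285 CPM.

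The pair did not keep a fixed ratio. Per exon length (RPKM, from TMM-scaled counts) *Ccl6* was 8.28 to 14.5 times as high as *Ccl9* in tdTom+ libraries, median 11.8, and 3.25 to 6.41 times as high in tdTom- libraries, median 4.30. The ranges did not overlap. Some *Ccl9* reads may be shared with other genes, since 59 of its 2996 exonic windows of 50 bases (1.97%) occurred elsewhere in the annotated transcripts. No such window was shared between *Ccl6* and *Ccl9*, and no gene overlapped the exons of either on the same strand.

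Genes around the pair did not all go with it. Within 150 kb of *Ccl6* the files list 19 genes, chosen here by position after their values were seen, of which 7 were tested, the pair included. Outside the pair 5 were tested, and *Mmp28* and *E230016K23Rik* were higher and *Taf15* and *Ccl5* lower in tdTom+. *Ccl5*, a T cell chemokine in the same cluster, had 2.10 ± 1.26 CPM in tdTom+ against 7.06 ± 7.11 CPM in tdTom- libraries, a log2 fold change of -1.76 (SE 0.54, edgeR adjusted p = 0.00881). *Ccl3* and *Ccl4*, also CC chemokine genes, had at most 7 and 13 counts in any library and were not tested. *E230016K23Rik*, which runs across *Ccl6* on the other strand, was at 1.01 ± 0.341 and 0.258 ± 0.158 CPM, 1.93 higher on the log2 scale (SE 0.31, edgeR adjusted p = 2.81e-05). With 10 to 31 reads per tdTom+ and 2 to 11 per tdTom- library, it passed the filter mainly through the fraction where it is high, which limits this call. Reads were counted by strand.

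*Cxcl16*, the membrane-bound ligand of *Cxcr6* and a scavenger receptor for oxidised lipids, was higher in tdTom+ by a smaller step. *Cxcl16* (ENSMUSG00000018920, chr11:70453983-70459984, minus strand) was at 41.3, 43.5, 64.1, 47.4, 57.6, 33.1, 31.2 and 44.3 CPM in tdTom+ libraries of mice 1 to 8. In tdTom- libraries it was at 12.0, 14.8, 13.0, 12.8, 19.5, 15.4, 10.1 and 11.5 CPM. The highest tdTom- library, mouse 5, stayed below the lowest tdTom+ library, mouse 7. The means were 45.3 ± 11.2 and 13.6 ± 2.91 CPM, a log2 fold change of 1.73 (SE 0.15, 95% interval 1.41 to 2.06, edgeR adjusted p = 1.50e-08). Per mouse the difference ran from 1.1 (mouse 6) to 2.30 (mouse 3). Of its 3021 exonic bases, 552 overlap *Zmynd15* on the other strand, which a strand-specific count keeps apart.

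*Ccl25*, the ligand that draws Ccr9-bearing lymphocytes to the small bowel, was lower in tdTom+ cells. *Ccl25* (ENSMUSG00000023235, chr8:4325210-4360020, plus strand) was at 393, 388, 419.5, 458, 473, 478, 366 and 481 CPM in the tdTom- libraries of mice 1 to 8. In tdTom+ libraries it was at 102, 91.5, 99.3, 98.2, 172, 174, 86.0 and 159 CPM. The tdTom+ values formed a low set of 5 mice and a high set of mice 5, 6 and 8, yet even the highest stayed far below every tdTom- library. The means were 123 ± 38.3 and 432 ± 46.1 CPM, and *Ccl25* fell by 1.81 on the log2 scale (SE 0.16, 95% interval -2.15 to -1.48, edgeR adjusted p = 1.05e-08), a level 3.52 times lower.

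*Pigr*, the carrier of IgA, had the highest level of the members. *Pigr* (ENSMUSG00000026417, chr1:130826684-130852249, plus strand) was at 5020, 5038, 5960, 5083, 6761, 6506, 5281 and 5456 CPM in tdTom- libraries of mice 1 to 8. In tdTom+ libraries it was at 2475, 2436, 2651, 2271, 3288, 3230, 3544 and 3047 CPM. No tdTom+ library reached the lowest tdTom- library. *Pigr* fell by 0.98 on the log2 scale (SE 0.12, 95% interval -1.23 to -0.73, edgeR adjusted p = 9.13e-07), from 5638 ± 689 to 2868 ± 469 CPM, and the difference per mouse ran from -1.17 (mouse 3) to -0.58 (mouse 7). *Pigr* took 0.578% of all counts in tdTom- and 0.282% in tdTom+ cells. Per length it was at place 32 of 15323 genes in tdTom- and still at place 71 in tdTom+, so the fraction with less *Pigr* also held much of it.

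The level of *Ccl25* and *Pigr* in tdTom+ libraries is set beside that of the absorptive markers, since tdTom+ libraries were not free of them. The summed level of the 8 absorptive markers in tdTom+ libraries of mice 1 to 8 was 3159, 3383, 3808, 2821, 6021, 4739, 1563 and 4162 CPM. Mice 5, 6 and 8, with the highest *Ccl25*, also had the highest sums. Mouse 7 had the lowest sum, the lowest *Ccl25* and the highest *Pigr*. In tdTom- libraries mice 5, 6 and 8 also had the highest *Ccl25* (473, 478 and 481 CPM), and mouse 7 the lowest (366 CPM). There the absorptive sum was highest in mice 5 and 6 (38346 and 37083 CPM). In mouse 8 it was 24823 CPM, above only that of mouse 7. The part of absorptive cells or their RNA in these values was not tested.

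**Figure D2:**
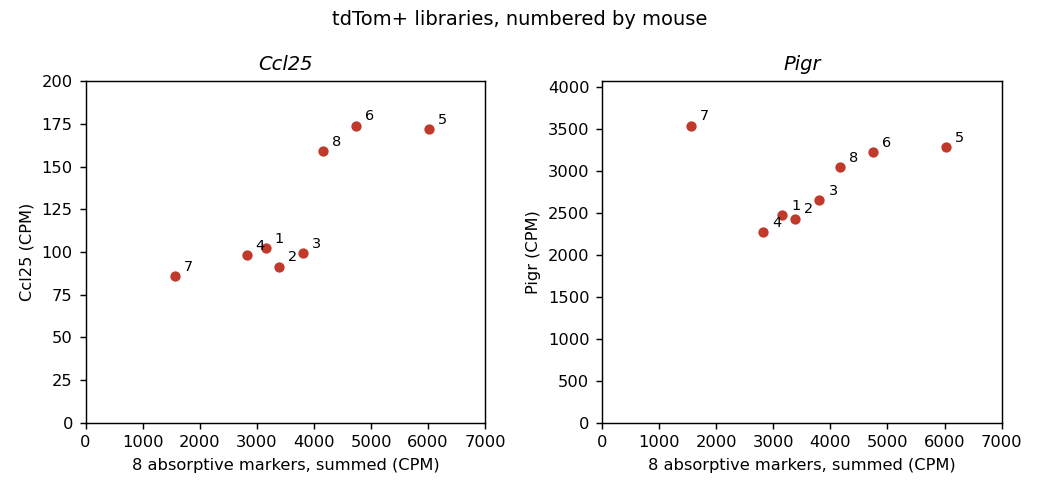
Level of *Ccl25* (left) and *Pigr* (right) in CPM against the summed level of 8 absorptive markers in CPM, in the 8 tdTom+ libraries, numbered by mouse. Mice 5, 6 and 8 lie at the upper right for *Ccl25*, and mouse 7, with the lowest marker sum, has the lowest *Ccl25* and the highest *Pigr*.

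Another measure of the same values is the share that remained in the lower fraction. *Ccl6* in tdTom- cells was at 0.605% and *Ccl9* at 1.5% of their tdTom+ means. The 8 goblet markers were at 0.534% to 1.40% (median 0.657%) and the 8 Paneth markers at 0.480% to 0.609% (median 0.564%) on the same measure. *Ccl6* was within both ranges, so this measure does not tell them apart for *Ccl6*. *Ccl9* was just above the goblet range and further above the Paneth range. In the other direction *Ccl25* in tdTom+ was at 28.4% and *Pigr* at 50.9% of their tdTom- means, and both were above all 8 absorptive markers, which were at 8.31% to 19.3% (median 12.6%). *Cxcl16* in tdTom- was at 30.1% of its tdTom+ mean. In that direction the enteroendocrine markers were at 6.38% to 47.0% and the tested tuft cell markers at 17.8% to 57.2%, and *Cxcl16* was within both ranges. The sort was made on the Rosa26 reporter, which is switched on by the Cre made from *Atoh1*, and these shares are descriptions without a test.

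**Figure D3:**
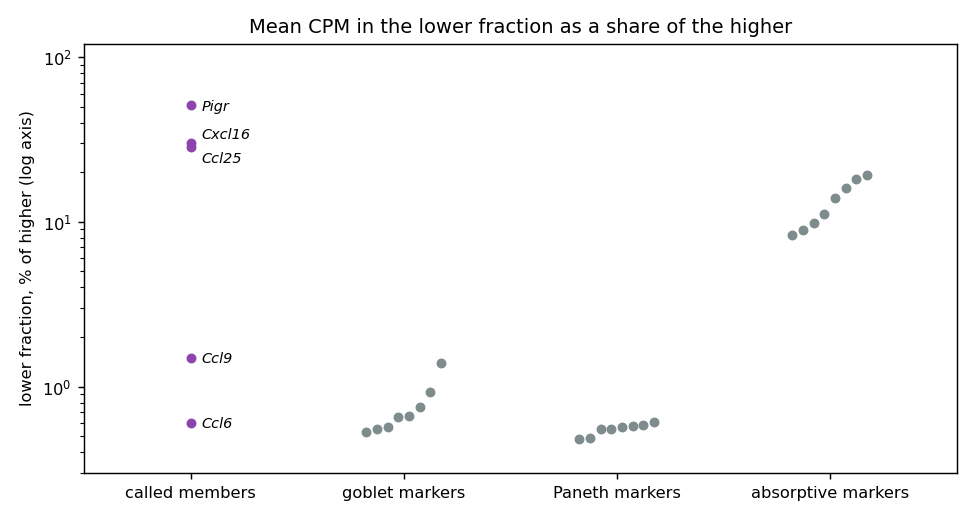
Mean CPM in the lower fraction as a percent of the mean in the higher fraction (log axis), for the 5 called members and for 8 goblet, 8 Paneth and 8 absorptive markers, 1 point per gene. *Ccl6* (0.605%) lies among the goblet and the Paneth points, and *Ccl9* (1.5%) lies just above the highest goblet point and above all Paneth points. *Ccl25* (28.4%) and *Pigr* (50.9%), lower in tdTom+ like the absorptive markers, lie above the absorptive points. *Cxcl16* (30.1%), lower in tdTom-, lies above the goblet and Paneth points, and enteroendocrine and tuft cell markers are not drawn.

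*Ccl28*, a mucosal chemokine for cells that bear *Ccr10* or *Ccr3*, did not pass the test. *Ccl28* (ENSMUSG00000074715, chr13:119623819-119654354, plus strand) was at 40.9, 42.1, 39.2, 39.4, 51.2, 50.9, 57.6 and 41.6 CPM in tdTom+ libraries of mice 1 to 8. In tdTom- libraries it was at 42.4, 42.1, 46.8, 49.4, 44.7, 42.7, 77.0 and 42.1 CPM. The tdTom- library of mouse 7 stood clear of the other 7, and the same mouse had the highest tdTom+ value. The log2 fold change was -0.09 (95% interval -0.35 to 0.17, edgeR adjusted p = 0.541), with tdTom+ higher in 3 of 8 mice. Without mouse 7 it was -0.02 (edgeR adjusted p = 0.822).

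*Cx3cl1*, a membrane-bound chemokine for mononuclear phagocytes, had nearly equal mean levels in both fractions. *Cx3cl1* (ENSMUSG00000031778, chr8:94772009-94782423, plus strand) lay between 83.7 and 118 CPM (median 97.9) in tdTom+ and between 69.3 and 117 CPM (median 103) in tdTom- libraries. The means were 99.4 ± 14.8 and 98.8 ± 15.9 CPM, with tdTom+ higher in 5 of 8 mice. The log2 fold change was 0.0091, with a 95% interval of -0.22 to 0.24 (edgeR adjusted p = 0.95), and its sign changed with the scaling.

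*Ccl20*, which draws Ccr6-bearing cells to lymphoid follicles, had the lowest level per length of the 8 tested members in tdTom+, at place 11062 of 15323 genes. *Ccl20* (ENSMUSG00000026166, chr1:83116766-83119167, plus strand) had 25 to 87 reads per tdTom+ library and 19 to 64 per tdTom- library. The levels were 2.43 ± 0.762 and 2.09 ± 0.773 CPM, 7 of 8 mice had the higher value in tdTom+, and the ranges overlapped. The log2 fold change was 0.22, with a wide 95% interval of -0.29 to 0.73 (edgeR adjusted p = 0.45).

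*Cxcl14* (ENSMUSG00000021508, chr13:56288647-56296551, minus strand), a chemokine of skin and other epithelia, was all but absent from the counts. No read was assigned to *Cxcl14* in any of the 8 tdTom+ libraries, and the tdTom- libraries had 1 read in mouse 7, 2 reads in mouse 8 and 0 in the others. A count of 0 allows up to 3 reads, which is 0.118 to 0.175 CPM before scaling in these libraries, for counting error only. No fold change is given.

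**Figure D4:**
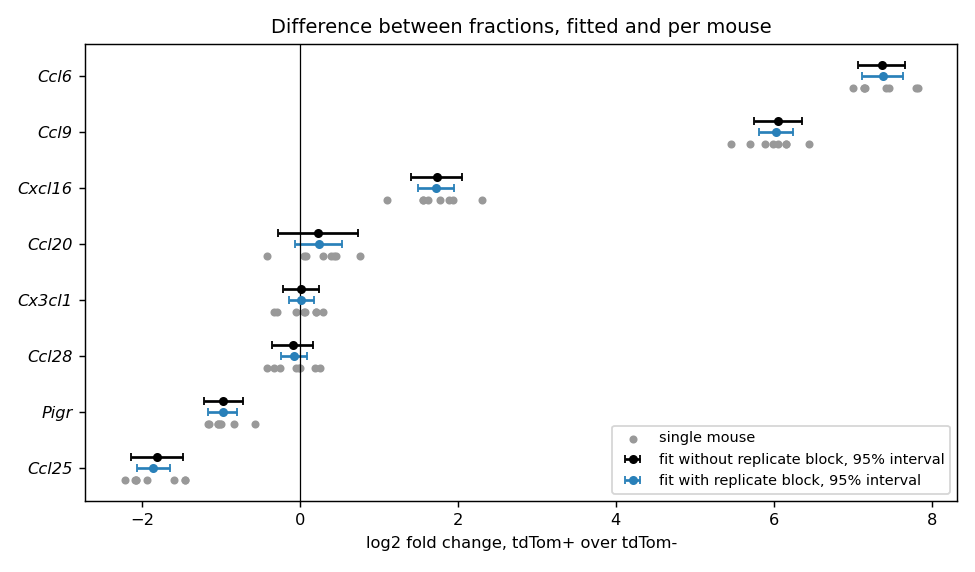
Log2 fold change of tdTom+ over tdTom- (horizontal axis) for the 8 tested members. Black points with bars are the edgeR fit and its 95% interval, blue ones the same fit with the replicate block, and grey points are the 8 mice; the intervals of *Ccl20*, *Cx3cl1* and *Ccl28* include 0 and the other 5 do not.

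Pairing the libraries by mouse left the calls as they were. With the replicate block the log2 fold changes were 7.38 for *Ccl6*, 6.03 for *Ccl9*, 1.72 for *Cxcl16*, -1.87 for *Ccl25* and -0.98 for *Pigr*. The 95% intervals with the block were -0.24 to 0.09 for *Ccl28*, -0.15 to 0.17 for *Cx3cl1* and -0.06 to 0.54 for *Ccl20*, narrower than without it.

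Levels of different members were compared per exon length, as RPKM. In tdTom+ cells the order was *Pigr* (713 ± 117 RPKM), *Ccl6* (640 ± 48.6), *Ccl9* (56.3 ± 12.6), *Ccl25* (46.0 ± 14.4), *Cx3cl1* (26.8 ± 3.98), *Cxcl16* (15 ± 3.72), *Ccl28* (12.1 ± 1.84) and *Ccl20* (1.71 ± 0.536), with *Cxcl14* at 0. *Pigr* and *Ccl6* overlapped across libraries, as did *Ccl9* with *Ccl25* and *Cxcl16* with *Ccl28*. In tdTom- cells the order was *Pigr* (1401 ± 171 RPKM), *Ccl25* (162 ± 17.3), *Cx3cl1* (26.6 ± 4.30), *Ccl28* (13.0 ± 3.17), *Cxcl16* (4.51 ± 0.965), *Ccl6* (3.88 ± 0.762), *Ccl20* (1.47 ± 0.544), *Ccl9* (0.846 ± 0.0937) and *Cxcl14* (0.00892). Here *Cx3cl1* and *Ccl28*, *Cxcl16* and *Ccl6*, and *Ccl20* and *Ccl9* overlapped. *Ccl6* thus moved from place 6 among the 9 members to place 2, and *Ccl25* from place 2 to place 4.

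**Figure D5:**
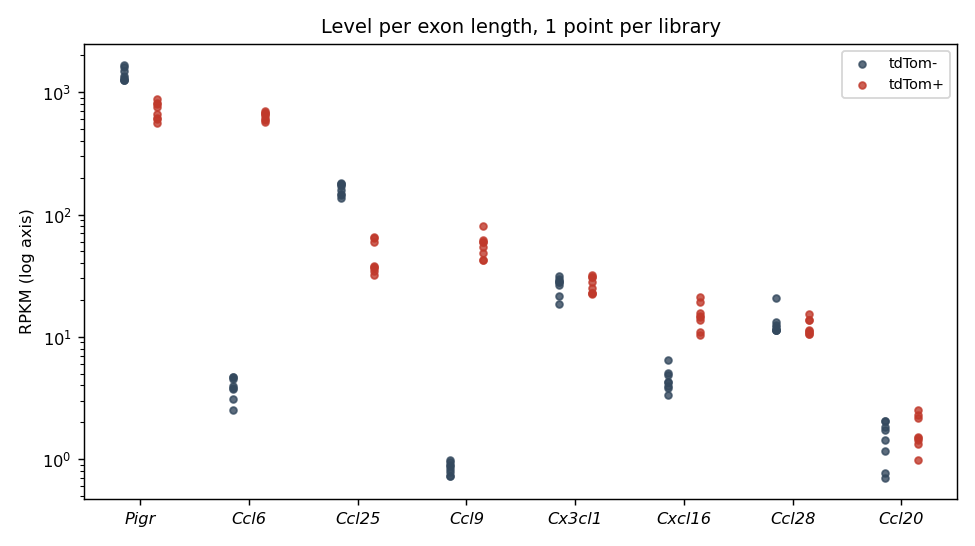
Level per exon length in RPKM (log axis) of the 8 members with reads in both fractions, 1 point per library, tdTom- in dark blue and tdTom+ in red. *Pigr* is the highest in both fractions, *Ccl6* and *Ccl9* are far apart between them, and *Cx3cl1*, *Ccl28* and *Ccl20* overlap.

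The balance between members shifted in each mouse. The ratio of *Pigr* to *Ccl25* per length was 12.3 to 27.3 in tdTom+ and 7.36 to 9.56 in tdTom- libraries. For the homing ligands *Ccl25* and *Ccl28* the ratio was 2.09 to 5.36 in tdTom+ and 6.66 to 16 in tdTom- libraries. For the membrane-bound ligands the ratio of *Cxcl16* to *Cx3cl1* was 0.451 to 0.765 in tdTom+ and 0.138 to 0.204 in tdTom- libraries. None of these 3 pairs of ranges overlapped.

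Other chemokine ligands were scarce in these epithelial cells. Of 28 listed ligands 5 could be tested, and 0 were higher and 3 were lower in tdTom+. Scarce genes can pass the filter through the fraction where they are high, so no median is drawn from the 5. At an unadjusted p under 0.05 the count of higher ligands was 0 in edgeR, 1 with the replicate block, 1 without a filter, 1 without mouse 7, and 1 in DESeq2 or 2 in DESeq2 with the block. The summed level of all 28 was 4.23 to 9.49 CPM in tdTom+ and 18.5 to 31.2 CPM in tdTom- libraries, and 15 of them had at most 3 counts in every library. *Ccl24*, an eosinophil chemokine, had 0.369 ± 0.113 CPM in tdTom+ against 5.42 ± 2.14 CPM in tdTom- libraries, a log2 fold change of -3.84 (SE 0.28, edgeR adjusted p = 1.22e-09). *Cxcl11*, an interferon-induced ligand of *Cxcr3*, was at 1.80 ± 0.556 and 7.23 ± 2.77 CPM (-2.0, edgeR adjusted p = 5.59e-06). The third was *Ccl5*, given above, whose call held in 10 of 18 alternatives and was lost when mouse 4, 5, 6, 7 or 8 was left out. Its tdTom- level was accompanied by transcripts of intraepithelial T cells, which make *Ccl5*. The summed level of 8 T cell markers was 135 and 148 CPM in the tdTom- libraries of mice 7 and 8 and 10.6 to 39.0 CPM in the other tdTom- libraries, against 5.96 to 28.9 CPM in tdTom+. Of these 8 markers 4 were lower in tdTom+ by edgeR. When mouse 3, 4, 5, 7 or 8 was left out 0 passed, and without mouse 7, 7 of the 8 had an unadjusted p under 0.05. The part of T cells in the *Ccl5* difference was not tested.

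The receptors of the members were barely present. *Ccr6* had no read in any library. *Ccr9* had 5 to 10 reads per tdTom+ and 8 to 51 per tdTom- library, and *Ccr10* had 0 to 3 and 2 to 17. *Ccr1* had 0 to 2 and 0 to 14 reads, *Ccr3* 0 to 1 and 0 to 7, *Cxcr6* 0 to 7 and 1 to 23, and *Cx3cr1* 0 to 1 and 0 to 6. All 7 fell below the filter, so the fractions held the ligands with next to none of the matching receptors. Of 22 listed receptors 2 were tested and both were called higher in tdTom+, but they passed the filter through that fraction, and these calls do not describe the list. Without the filter 3 receptors were higher and 4 lower, and with at least 10 counts in every library 0 were called. The 2 were *Cxcr4*, the *Cxcl12* receptor, at 1.14 ± 0.360 and 0.382 ± 0.207 CPM, and *Ackr4*, a scavenging receptor that binds *Ccl25*, at 2.22 ± 1.04 and 0.603 ± 0.479 CPM. They are named after their values were seen.

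The cargo of *Pigr* gave another view. *Igha*, the heavy chain of IgA, had 142 ± 108 CPM in tdTom+ against 748 ± 717 CPM in tdTom- libraries, and the log2 fold change was -2.40 (SE 0.58, edgeR adjusted p = 0.00154), lower in 8 of 8 mice. *Jchain*, the joining chain that *Pigr* recognises, was at 20.4 ± 15.6 and 108 ± 103 CPM (-2.41, edgeR adjusted p = 0.00111). Both are products of plasma cells and not of epithelium. The tdTom- library of mouse 7 had the highest values, 2448 CPM of *Igha* and 350 CPM of *Jchain*, and it was also the library with the highest *Ccl28*. Of 8 B and plasma cell markers 4 could be tested and all 4 were lower in tdTom+, while the other 4 fell below the filter. Among the 4 tested, *Mzb1*, named after its values were seen, had 0 to 6 reads per tdTom+ and 11 to 87 per tdTom- library. It passed the filter through the fraction where it is high, so its direction adds nothing to this count. The summed level of the 8 was 15.2 to 451 CPM in tdTom+ and 423 to 3695 CPM in tdTom- libraries. The part of plasma cells in these values was not tested.

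Vesicle traffic genes on the route of *Pigr* moved in both directions. Of 25 genes for recycling endosomes, the exocyst and apical sorting, 24 were tested, 6 were higher and 11 were lower in tdTom+, with a median log2 fold change of -0.12. Among the 6, *Rab3b*, named after its values were seen, had 11 to 37 reads per tdTom+ and 1 to 12 per tdTom- library. It passed the filter through the fraction where it is high, so its direction adds nothing to this count, and the median includes it. The balance turned with the setting, to 9 higher and 6 lower without mouse 3 and to the same counts with at least 10 counts in every library. *Rab17*, a small GTPase of epithelial transcytosis, was lower, at 20.8 ± 5.84 against 52.8 ± 8.34 CPM (log2 fold change -1.34, SE 0.15, edgeR adjusted p = 2.58e-07). *Myo5b*, the motor of apical recycling endosomes, was at 147 ± 16.5 and 277 ± 43.0 CPM (-0.91, edgeR adjusted p = 2.28e-07). *Rab3d*, a GTPase of secretory granules, was higher by the widest margin of the list, at 250 ± 29.8 and 16.4 ± 3.34 CPM (3.93, edgeR adjusted p = 8.35e-15). *Exoc5*, an exocyst subunit, was at 54.1 ± 7.04 and 33.9 ± 3.22 CPM (0.67, edgeR adjusted p = 1.15e-06). *Rab11a* and *Rab25*, GTPases of the recycling endosome that are named after their values were seen, did not pass, with log2 fold changes of 0.11 (edgeR adjusted p = 0.149) and 0.20 (edgeR adjusted p = 0.0113).

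Genes listed for the shedding and trimming of chemokines, proteases and partners of proteases, differed more widely. Of 9 genes, all tested, 4 were higher and 4 were lower in tdTom+, with a median log2 fold change of 0.23. *Mmp7*, a matrix protease of Paneth cells that is also 1 of the 8 Paneth markers, had 842 ± 322 CPM in tdTom+ against 4.69 ± 1.19 CPM in tdTom- libraries, a log2 fold change of 7.48 (edgeR adjusted p = 2.78e-14). *Bace2*, a membrane-bound aspartyl protease, was at 99.3 ± 15.6 and 1.98 ± 0.449 CPM (5.64, edgeR adjusted p = 7.36e-16). *Dpp4*, the brush border peptidase that clips the amino end of several chemokines, had the opposite direction, at 100.1 ± 17.8 and 506 ± 112 CPM (-2.34, edgeR adjusted p = 2.74e-10). *Rhbdf2*, a partner of *Adam17*, was at 19.0 ± 2.53 and 30.9 ± 3.18 CPM (-0.70, edgeR adjusted p = 7.36e-07). Its relative *Rhbdf1*, named after its values were seen, went the other way, at 18.2 ± 2.42 and 8.52 ± 2.12 CPM (1.09, edgeR adjusted p = 1.44e-06). *Adam10*, the main sheddase of *Cx3cl1* and *Cxcl16* at rest, also named after its value was seen, did not pass at 0.23 (edgeR adjusted p = 0.0135). With TMM scaling without the 10 most counted genes 5 of the list were higher, *Adam10* among them, and 3 lower, so this outcome turned on the setting.

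Receptors and factors that can induce the members differed by smaller amounts. Of 21 genes, all tested, 2 were higher, 8 were lower and 11 did not pass, with a median log2 fold change of -0.14. Without mouse 3 the lower genes numbered 5. *Nfkb2*, a subunit of the alternative NF-kB pathway, was higher at 102 ± 12.4 against 22.3 ± 4.36 CPM (2.19, edgeR adjusted p = 6.26e-12), and *Rela*, the main activating NF-kB subunit, was at 32.5 ± 2.03 and 26.4 ± 1.89 CPM (0.30, edgeR adjusted p = 1.91e-04). *Relb*, the partner of *Nfkb2*, was lower, at 28.6 ± 4.97 and 47.6 ± 10 CPM (-0.73, edgeR adjusted p = 5.15e-05). *Ifngr2*, a chain of the interferon gamma receptor, was at 85.7 ± 10.5 and 166 ± 24.9 CPM (-0.96, edgeR adjusted p = 1.00e-07).

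Other cell types that could supply chemokine transcripts were looked at through their markers. Among 8 myeloid markers 4 were tested, of which 3 were lower in tdTom+, and *Lyz2* was higher (7.42 on the log2 scale). *Lyz2* is nearly identical to the Paneth cell gene *Lyz1*, so the division of reads between them is uncertain. *Itgam*, an integrin of myeloid cells, had 78 to 174 reads in tdTom+ and 142 to 330 reads in tdTom- libraries, and *Cd68* had 5 to 19 and 7 to 40. *Fcer1g*, the third lower marker, had 1 to 16 and 8 to 47 reads. It passed the filter mainly through the fraction where it is high, so its direction adds nothing to the count of lower markers. The macrophage genes *Csf1r* and *Adgre1* had 0 to 3 and 0 to 4 reads in tdTom+ and 7 to 84 and 2 to 22 reads in tdTom- libraries. *Cd68*, *Fcer1g*, *Csf1r* and *Adgre1* are named after their values were seen. Macrophages also make *Ccl6* and *Ccl9*, and their part in these values was not tested. Of 8 M cell markers 5 were tested, 3 were higher and 1 was lower, and *Gp2*, *Sox8* and *Aif1* fell below the filter. Of 8 stromal and endothelial markers 4 were tested, 1 was higher and 1 was lower.

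The genes with the most similar profile were found for each member by Pearson's r of log2 CPM over the 16 libraries. These values describe 16 libraries from 8 mice, share the sort and the mice, and carry no p. For *Ccl6* they were *Agr2*, *Spdef* and *Creb3l1* (all r = 0.998 or above), and for *Ccl9* they were *Itln1*, *Spink4* and *Defa26* (r = 0.998 for each). For *Ccl25* they included *Slc39a5* and *Otc* (r = 0.995 for each), and for *Pigr* they were *Slc35f2*, *Ccni* and *Ctsz* (r = 0.982, 0.982 and 0.981). For *Cxcl16* they were *Map1lc3a*, *Rras* and *Upk1a* (r = 0.986, 0.983 and 0.979). The members without a call had lower values: *Casp12*, *Nox1* and *Trp53* for *Ccl28* (0.906, 0.880 and 0.874), *4833439L19Rik*, *Tgoln1* and *Pdcd6ip* for *Cx3cl1* (0.893, 0.889 and 0.889), and *Mid1*, *Zfp874b* and *Mid1-ps1* for *Ccl20* (0.882, 0.879 and 0.839). High values over both fractions follow from the fraction difference itself.

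The most similar genes within fractions were found in the same way after each fraction's mean was taken off. They are the highest values among the 15323 genes tested, and such a choice by itself favours high values. For *Ccl9*, *Cxcl16* and *Cx3cl1* they all differed from the genes named above. *Ccl25* went with *Cisd3* and *Slc39a5* (r = 0.949 for both). *Cxcl16* went with *Pkp3*, *Spire2* and *Tsc22d4* (r = 0.949, 0.916 and 0.912), *Cx3cl1* with *Ctnna1*, *Galnt1* and *Cyfip1* (0.935, 0.927 and 0.917), and *Pigr* with *Slc35f2*, *Ccni* and *Tle4* (0.869, 0.865 and 0.864). *Ccl6* went with *Agr2*, a goblet cell protein-folding factor (0.815), *Wfikkn2* (0.784) and *Calr-ps* (0.771), and *Ccl9* with *Defa-ps4*, *Gm12201* and *Zxda* (0.805, 0.778 and 0.778). *Ccl28* went with *Casp12*, *Kif2c* and *Tpd52l2* (0.906, 0.905 and 0.901). Without the libraries of mouse 7, a choice made after the values were seen, the last 3 were 0.763, 0.656 and 0.751, so part of that likeness rested on mouse 7. *Ccl20* went with *Gm47283*, *Zfp874b* and *Mid1* (0.879, 0.879 and 0.876).

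Between members the within-fraction values were weaker and several turned on mouse 7. *Ccl25* and *Pigr* had r = 0.489 over 16 libraries and 0.811 over the 14 without mouse 7. *Ccl25* and *Ccl28* had r = -0.018 with and 0.702 without it. *Ccl28* and *Cx3cl1* went in opposite directions, with r = -0.769 and -0.539. *Ccl6* and *Ccl9*, next to each other on the chromosome and alike in their fraction difference, had r = 0.310 and 0.337 within fractions.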

How the data were processed

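The members and the gene lists were chosen with earlier results of these data known. Reads (single-end, TruSeq Stranded mRNA) were aligned by the authors to GRCm38 with TopHat2 (version 2.1.1 per the processing notes). The deposited values are unscaled counts for each Ensembl gene, which the authors made with featureCounts (1.5.0-p1 in the headers), on exons, by strand, with primary alignments only and without normalization. Symbols came from GENCODE M21 for 44671 of the 45513 genes.

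Each library's group came from its label and the mouse number from its title. In R 4.3.3 the counts were filtered with filterByExpr and scaled by TMM, and the fractions were compared with edgeR 4.0.16 (quasi-likelihood F-test, no block), adjusted by Benjamini-Hochberg over 15323 genes (threshold 0.01). Log2 CPM used a prior count of 2. RPKM divides scaled counts by exon length. Both fractions came from every mouse, per the series design. Deviations from the fraction means correlated between libraries of the same number (mean r = 0.426, lowest 0.245) and not between others (mean -0.057), and all 8 tdTom- libraries matched their own number best, so the paired fit is given as the alternative with replicate block.

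The alternatives were other scalings, DESeq2 1.42.0, limma-voom 3.58.1, other filters, thinning to the smallest total, other thresholds and leaving out each mouse. The script was tested on simulated counts. Genes were named by rule: the members, the 3 most similar genes of each, the 2 highest and 2 lowest called genes of each list with at least 5 CPM, and the receptors of the members, *Igha*, *Jchain* and *Atoh1*. A gene that the rule names for *Ccl25* is not reported here. Other genes, among them *Rab11a*, *Rab25*, *Adam10*, *Cxcr4*, *Ackr4*, *Cd68*, *Csf1r* and *Adgre1*, were named after their values were seen, by position or as checks. With 17116405 to 25323567 counts per library, counting error is small for members other than *Ccl20* and *Cxcl14*, and floors cover counting error only.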

Additional observations from a re-analysis of the deposited data

Results flagged for a closer look

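*Ccl28* in the tdTom- library of mouse 7 stood apart from the other 7 libraries of its fraction. On the log2 CPM scale it was at 6.27 and the others at 5.40 to 5.63, so the gap to the nearest library was 0.735 of the whole range, above Dixon's critical value for 8 samples. Both fractions of the 8 tested members gave 16 sets, of which 1 was marked in this way, and chance marks about 1 set in 20. The same library had the highest *Igha* level (2448 CPM) and the lowest sum of the absorptive markers (14550 CPM), and their part in the *Ccl28* value was not tested.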

How the results depend on the processing

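The calls and directions of *Ccl6*, *Ccl9*, *Cxcl16*, *Ccl25* and *Pigr* were kept in all 19 alternatives that gave them a value, with log2 fold changes of 7.30 to 7.49, 5.97 to 6.17, 1.66 to 1.85, -1.88 to -1.68 and -1.04 to -0.84 and a highest adjusted p of 4.39e-05 (*Pigr*). The replicate block raised the genes called to 8556 (3956 higher and 4600 lower) and left 5 members called; it changed the call of no member. A minimum size of 1 on the log2 scale left 3434 genes, 1703 higher and 1731 lower, and of the members it dropped *Pigr*, so that 1 member was lower; this follows from the added criterion. The 3 members that did not pass had no stable direction or a wide interval. *Cx3cl1* changed sign with total counts only (-0.062) and with no filter on low counts (-8.96e-05), and ran from -0.019 to 0.084 when a mouse was left out. *Ccl28* changed sign when at least 10 counts in every library were required (0.027) and ran from -0.142 to 0.033 when a mouse was left out. The median of all genes moved from 0.0087 to 0.116 with that filter and to 0.115 without mouse 3, so changes of that size turn on the setting, and the cause was not tested. *Ccl20* kept its sign, at 0.17 to 0.36. Lists of scarce genes moved most: with no filter, 6 other ligands and 7 myeloid markers were lower. Depth limits *Ccl20*, *Cxcl14* and the receptors.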
